A study of Saccharomyces cerevisiae with 22 samples.

Results

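Chromosome IX genes were taken as all probes, controls left out, whose systematic gene name begins with YIL (left arm) or YIR (right arm), averaged per gene. This gave 211 of the 6225 genes on the array, each read by 1 probe, and the rule used no measured value. Of the 211, 204 could be tested (5912 genes in all), because in 1 group or more all arrays read them well above background, and 196 met this in all 8 groups. The study lists a trisomy of the whole of chromosome IX in the numbered evolved line whose expression table matches the name B3, and none in the line matched to D11. The sample labels do not state this pairing, and the sources used here do not tie H9 to a numbered line. Each gene was therefore followed in B3 and set against the ancestor, D11 and H9.

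All strains were self-diploid budding yeast of the BY4742 background (MATα, his3Δ1, leu2Δ0, lys2Δ0, ura3Δ0), grown in liquid synthetic medium without leucine. The 8 groups were B3 with the tRNA (3 arrays) and with the empty vector (2), D11 with the tRNA (3) and with the empty vector (3), H9 with the tRNA (3) and with the empty vector (3), and the ancestor with the tRNA (3) and with the empty vector (2). The tRNA was a Candida albicans serine tRNA that places serine at the leucine codon CUG, carried on a single-copy LEU2 plasmid, and the control vector was pRS315, which also carries LEU2. B3, D11 and H9 were evolved from 1 clone that carried the tRNA plasmid, and each stands for 1 evolved line, so that line and clone cannot be told apart. The labels call the replicates independent experiments.

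An extra chromosome in a diploid gives 3 copies of each of its genes in place of 2. In budding yeast the transcripts of most genes on a gained chromosome follow the copy number, and genes under strong feedback or environmental control can depart from it. A gene that follows a 3:2 change in copies lies at a log2 difference of 0.585, that is, 1.5-fold. Chromosome IX of budding yeast carries, among others, a cluster of genes that break down allantoin as a nitrogen source, the invertase gene SUC2, the flocculin gene FLO11, several genes of protein degradation and secretion, and, near its ends, members of families with close copies on other chromosomes.

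Levels are given as log2 of the background-subtracted signal relative to the median of the same array, and differences are differences of such values. The arrays had median signals of 356 to 2282, and at least 85.8% of spots were well above background on each. Replicates correlated at 0.924 to 0.998. On some arrays genes fell far below the other replicates, by more than 1 log2 unit under the rest of their group. In D11 these were 17 chromosome IX genes on array 3 with the empty vector and 13 on array 2 with the tRNA. In H9 they were 9 on array 3 with the empty vector. Over all 5912 genes tested the counts on these arrays were 598, 395 and 238, so low values were not particular to chromosome IX. Low chromosome IX genes numbered 0 on every B3 array and 0 to 2 on the ancestor arrays. The 3 replicate numbers lay on 3 slides, slide 3 of which held no empty-vector array of B3 or of the ancestor. Slide 3 was scanned on another day than slides 1 and 2. The α-specific genes STE3, MF(ALPHA)1 and MF(ALPHA)2 were well above background in all 8 groups, but so was the a-specific STE2, and levels of different probes were not set against each other, so the mating type was not checked further. No DNA was measured on these arrays, and in bulk RNA a change in the share of cells and a change in transcripts per cell cannot be told apart.

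Transcripts of chromosome IX were raised as a block in B3 with both plasmids and not in D11 or H9. Averaged over the 204 genes, the 3 B3 arrays with the tRNA lay 0.51, 0.52 and 0.49 above the mean of the ancestor with the tRNA (0.51 ± 0.01, SD, n = 3, a 1.42-fold difference). The 2 B3 arrays with the empty vector both lay 0.43 above the ancestor with the empty vector (n = 2, 1.35-fold). All 5 B3 arrays were thus between 0.428 and 0.522, whereas the other 17 arrays lay between -0.125 and 0.114, with no overlap. The ancestor arrays among the 17 were set against their own group mean, so they average 0 by construction. Both ends of that range were D11 arrays.

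**Figure D1:**
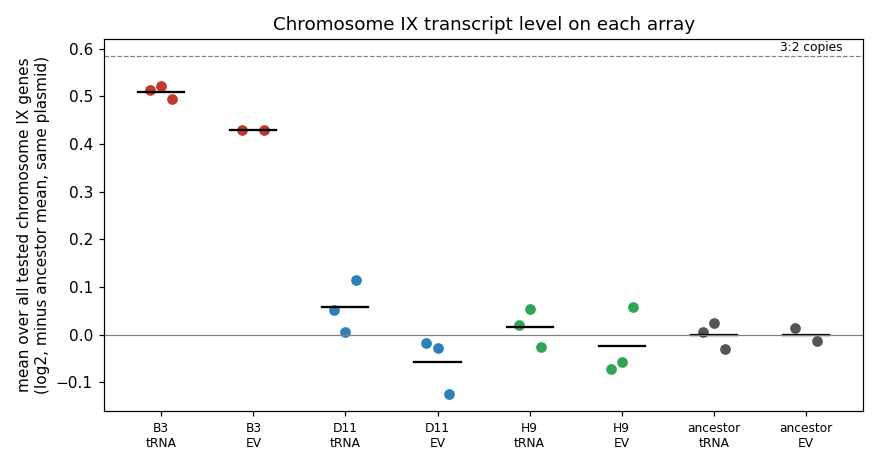
Mean log2 level of the 204 chromosome IX genes on each of the 22 arrays, minus the mean of the ancestor arrays with the same plasmid. Points are arrays, bars are group means, and the dashed line marks a 3:2 ratio of copies. The 5 B3 arrays lie between 0.428 and 0.522 and the other 17 between -0.125 and 0.114. The ancestor arrays average 0 by construction.

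The same comparison within a slide, B3 against the ancestor array on that slide, gave 0.51, 0.50 and 0.52 with the tRNA (slides 1, 2 and 3) and 0.42 and 0.44 with the empty vector (slides 1 and 2). Chromosomes without listed changes are here all but IV, V, VII, IX and XII, which the study lists for the lines matched to B3 and D11. It lists changes of III and XVI only in other numbered lines, and these chromosomes were kept. Over the 3582 genes of this set the B3 means were -0.02 with the tRNA and -0.06 with the empty vector, so those chromosomes lay slightly below 0. In D11 the chromosome IX mean was 0.06 ± 0.05 with the tRNA and -0.06 ± 0.06 with the empty vector, and in H9 it was 0.02 ± 0.04 and -0.02 ± 0.07 (SD, n = 3 each). These comparisons share the ancestor arrays. Chromosome XII, which the study also lists as gained in B3, had a B3 mean of 0.07 with the tRNA and 0.43 with the empty vector over its 519 genes, and the ancestor itself was 0.36 higher on XII with the tRNA than with the empty vector. On chromosome IX the ancestor with the tRNA differed from the ancestor with the empty vector by -0.06.

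Gene by gene, most of the chromosome moved up. Of the 204 genes, 193 were above 0 with the tRNA and 177 with the empty vector, 171 of them with both. At an adjusted p under 0.05 (limma, adjusted over all 5912 genes), 84 genes (41.2%) rose in B3 with the tRNA, against 2.91% of all genes tested, and 72 (35.3%) rose with the empty vector, against 6.77% of all genes. These comparisons share no array, but they share each gene's error, which was fitted over all 22 arrays. Both called 46 genes, 63.9% of the empty-vector list and 54.8% of the tRNA list. The share of all genes called in both was not counted, so nothing is read from this overlap. With the tRNA 0 genes fell (limma, 1 at an unadjusted p under 0.05; 1.62% of all genes fell), and with the empty vector 1 fell, XBP1 (7.44% of all genes fell). The numbers of calls rested on few arrays. Without 1 of the 4 empty-vector arrays the 72 became 24 (B3 array 1), 26 (B3 array 2), 34 (ancestor array 1) or 29 (ancestor array 2), and the 84 became 54 without B3 array 1 or ancestor array 3 with the tRNA.

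Averaged over both plasmids, 122 of the 204 genes rose in B3 against the ancestor (59.8%, against 7.7% of all genes tested) and 2 fell (6.88% of all genes fell). The median gene was 0.50 higher (1.42-fold). On 143 genes (70.1%) every B3 array was above every ancestor array with the same plasmid, for both plasmids, against 7.75% of all genes, and on 1 gene, CSS1, every B3 array was below (6.12% of all genes). Against D11 and H9 together, which share no array with the ancestor, 149 chromosome IX genes were higher in B3 (73%, against 12.7% of all genes) and 4 lower (15.4% of all genes were lower). That comparison uses the same 5 B3 arrays as the one with the ancestor.

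RPN2, a subunit of the regulatory particle of the proteasome, was at 3.36, 3.38 and 3.46 in B3 with the tRNA, against 2.56, 2.91 and 2.63 in the ancestor with the tRNA. With the empty vector it was at 3.39 and 3.34 in B3, against 2.90 and 2.78 in the ancestor. All B3 arrays were above all 17 others, and the difference from the ancestor over both plasmids was 0.61 ± 0.08 (SE, adjusted p = 0.000102). EPS1, a membrane-bound protein disulfide isomerase of the endoplasmic reticulum, was among the most precisely measured. Its levels were 1.57, 1.499 and 1.55 in B3 with the tRNA, against 0.89, 0.90 and 0.88 in the ancestor with the tRNA. With the empty vector they were 1.61 and 1.58 in B3, against 1.20 and 1.15 in the ancestor. The difference was 0.53 ± 0.05 (adjusted p = 8.92e-06), and over both plasmids D11 and H9 were at -0.06 ± 0.05 and 0.12 ± 0.05, neither past the test (adjusted p = 0.400 and 0.169).

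SSM4, an ubiquitin ligase of the endoplasmic reticulum that the study lists among mutated genes, was at 2.54, 2.45 and 2.29 in B3 with the tRNA, against 1.85, 1.86 and 2.00 in the ancestor with the tRNA. With the empty vector its levels were 2.46 and 2.49 in B3, against 1.76 and 1.67 in the ancestor. B3 was 0.64 ± 0.09 higher (adjusted p = 0.000169) with no overlap. NUP159, a nuclear pore protein that the study also lists as mutated, was 0.47 ± 0.10 higher (adjusted p = 0.00311), and it was also 0.26 ± 0.09 higher in D11 (adjusted p = 0.0477). ASG1, a zinc cluster regulator of stress genes, was at 2.02, 1.70 and 2.02 in B3 and 1.30, 1.34 and 1.39 in the ancestor with the tRNA, and at 1.96 and 2.05 in B3 and 1.20 and 1.16 in the ancestor with the empty vector. Its difference of 0.70 ± 0.55 was not called (adjusted p = 0.455), although the groups did not overlap. D11 array 3 with the empty vector read -2.14 for this gene and widened the shared error. In a fit of only the groups compared the adjusted p of ASG1 was 0.000290, and without that D11 array it was 0.0309.

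The same pattern held for other genes with wide errors. Of 22 chromosome IX genes with a standard error over 0.3, 17 were more than 1 log2 unit below the rest of their group on D11 array 3 with the empty vector or on D11 array 2 with the tRNA. They include EMC5, a subunit of the endoplasmic reticulum membrane complex (0.98 ± 0.46, adjusted p = 0.172, 5.02e-05 without that empty-vector array), FIS1, which acts in mitochondrial division (0.58 ± 0.47), RPL34B, a protein of the large ribosomal subunit (0.54 ± 0.63), and OM45, of the mitochondrial outer membrane (-0.27 ± 1.02), which is among the 10 lowest genes. Fitting only the groups compared raised the 122 genes to 160, the first 122 among them.

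Averaged over both plasmids, the shift was even along most of the chromosome. The median difference over both plasmids was 0.47 on the left arm (164 genes) and 0.55 on the right arm (40 genes), and when the genes were taken in 10 consecutive blocks of 20 or 21, 9 of the blocks had medians of 0.41 to 0.55. The exception was the block at the left end, from YIL177C to ESL1, at 0.25. With the tRNA alone that block was also the lowest, at 0.37, and the others were at 0.51 to 0.59. With the empty vector alone it was at 0.42, and the lowest block was that from SEC24 to YIL089W, at 0.24. The remaining blocks were then at 0.40 to 0.55. Among the 8 tested genes of the subtelomeric list the median was 0.12, with 1 gene higher and 1 lower, and over the other 196 it was 0.51. Dim genes followed somewhat less than bright ones, with a median of 0.40 among the 68 dimmest genes and 0.52 among the 68 in the middle and among the 68 brightest, and median standard errors of 0.15, 0.12 and 0.11.

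**Figure D2:**
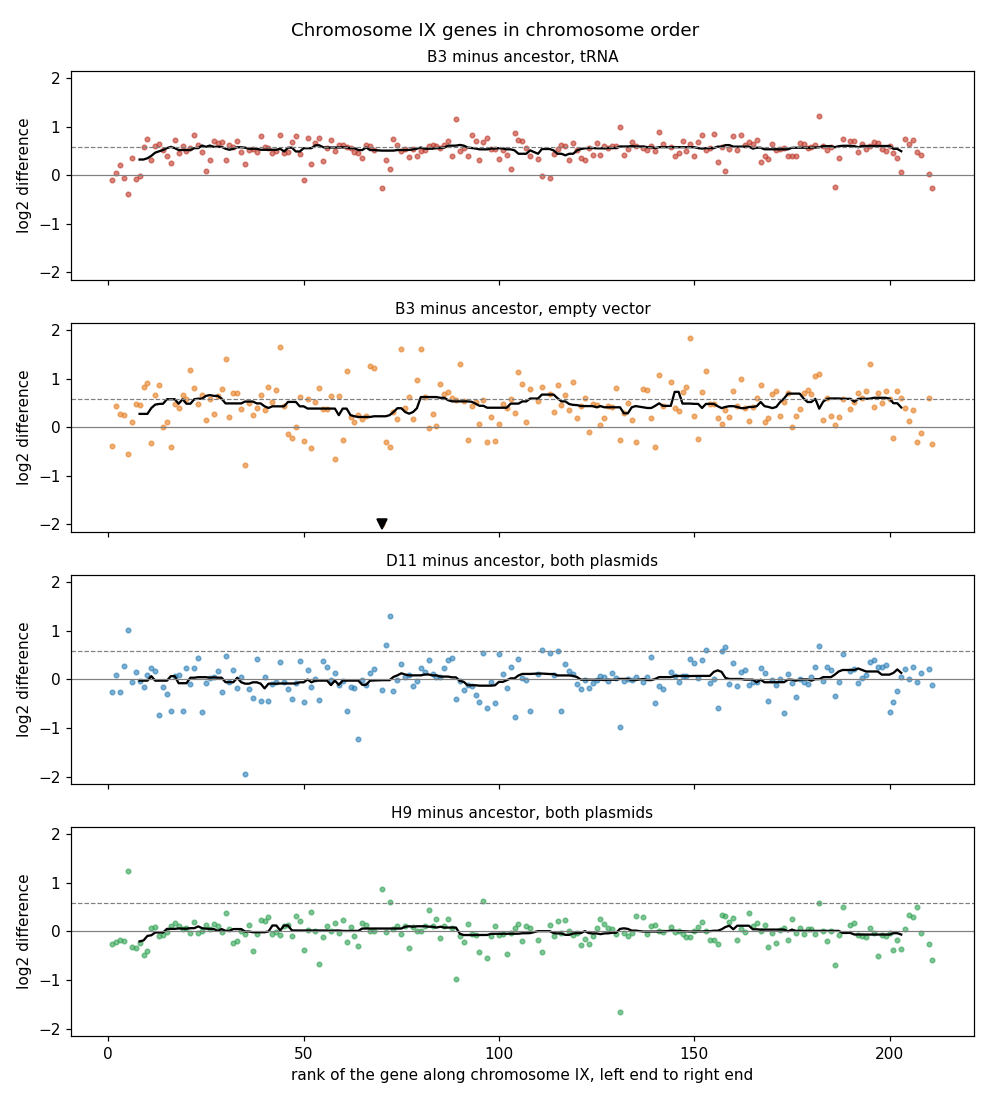
Difference from the ancestor for the 204 genes in their order along chromosome IX, for B3 with each plasmid and for D11 and H9 over both plasmids. Points are genes (log2), the black line is the running median of 15 genes, the dashed line marks a 3:2 ratio, and the triangle at -2 is XBP1, whose value lies below the axis. The running median is drawn only where a full window of 15 genes is available, and there that of B3 lies above 0 with each plasmid. With the tRNA it starts at 0.32 at the left end.

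Each gene's 95% interval, from limma and over both plasmids, was set against 0 and against log2 of 1.5. For 118 genes (57.8%) the interval held log2 of 1.5 and lay above 0, and for 26 (12.7%) it lay between the 2 values. It lay above log2 of 1.5 for 7 genes (3.43%), held both values for 24 (11.8%), held 0 and lay below log2 of 1.5 for 25 (12.3%) and lay below 0 for 4 (1.96%). On the chromosomes without listed changes the shares were 3.77% for intervals that held log2 of 1.5 only and 61.7% for those that held 0 only. The intervals were not adjusted for the number of genes.

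The chromosome looked more uniform with the tRNA than with the empty vector. With the tRNA the SD over genes of the B3 difference was 0.24 and the quartiles were 0.41 and 0.65. With the empty vector the SD was 0.48 and the quartiles were 0.19 and 0.70. The genes of chromosomes without listed changes had SDs of 0.25 and 0.49 for the same comparisons, so the wider spread with the empty vector was not particular to chromosome IX. Some genes had an interval that held 0 or lay below it, and lay below log2 of 1.5. They numbered 18 with the tRNA and 48 with the empty vector, with 10 genes in common. On the chromosomes without listed changes 60.5% of genes were in this class with both plasmids. There the interval held 0 only for 70% with the tRNA and 49.4% with the empty vector. It lay below 0 for 5.42% and 17.6%.

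**Figure D3:**
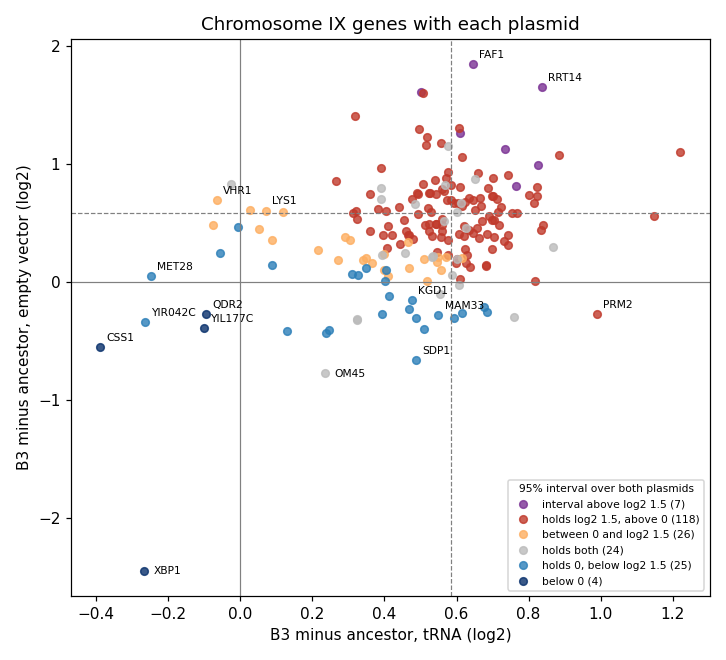
Difference of B3 from the ancestor with the tRNA (horizontal) and with the empty vector (vertical), log2, for 204 genes, coloured by where the 95% interval over both plasmids lies. Dashed lines mark a 3:2 ratio. The genes cluster near the median of 0.55 on the horizontal axis and spread more on the vertical one, with XBP1 at -2.44.

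Genes were grouped by function. The counts of each group over both plasmids stand beside 59.8% of the 204 chromosome IX genes and 7.7% of all genes tested that rose, and no group was tested against the rest of the chromosome. Of the 10 secretory pathway genes all were above 0, 9 rose and the median was 0.59, with BET1, a SNARE of transport from the endoplasmic reticulum to the Golgi, at 0.66 ± 0.07 (SE) and SEC11, the catalytic subunit of signal peptidase, at 0.62 ± 0.09. Genes of transcription and mRNA had a median of 0.62, and 8 of 10 rose, among them NOT3, a subunit of the CCR4-NOT complex, at 0.71 ± 0.06. Of 11 genes of the cytoskeleton, kinetochore and division, 9 rose (median 0.49), and of 10 genes of ubiquitin, SUMO and the proteasome 7 rose (median 0.56). That last group includes STS1, needed to bring proteasomes to the nucleus, at 0.63 ± 0.08, and URM1, an ubiquitin-like protein that also serves in tRNA thiolation.

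URM1 was at 0.47, 0.36 and 0.19 in B3 with the tRNA, against -0.46, -0.62 and -0.37 in the ancestor with the tRNA. Its empty-vector levels were 0.41 and 0.26 in B3, against -0.59 and -0.72 in the ancestor. The difference of 0.91 ± 0.11 (adjusted p = 5.63e-05) had a 95% interval of 0.67 to 1.14, above the 3:2 value. The groups did not overlap with either plasmid.

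The 6 genes of allantoin degradation had a median of 0.57, and 3 rose, of which DAL4, the allantoin permease, was at 0.69 ± 0.12. DAL3, ureidoglycolate lyase, was at 0.12 ± 0.16 and not called. Of 5 ribosomal protein genes 2 rose (median 0.43), and RPS24B was at 0.19 ± 0.16. These have near-identical copies elsewhere that the probes may also read, so their values are uncertain.

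**Figure D4:**
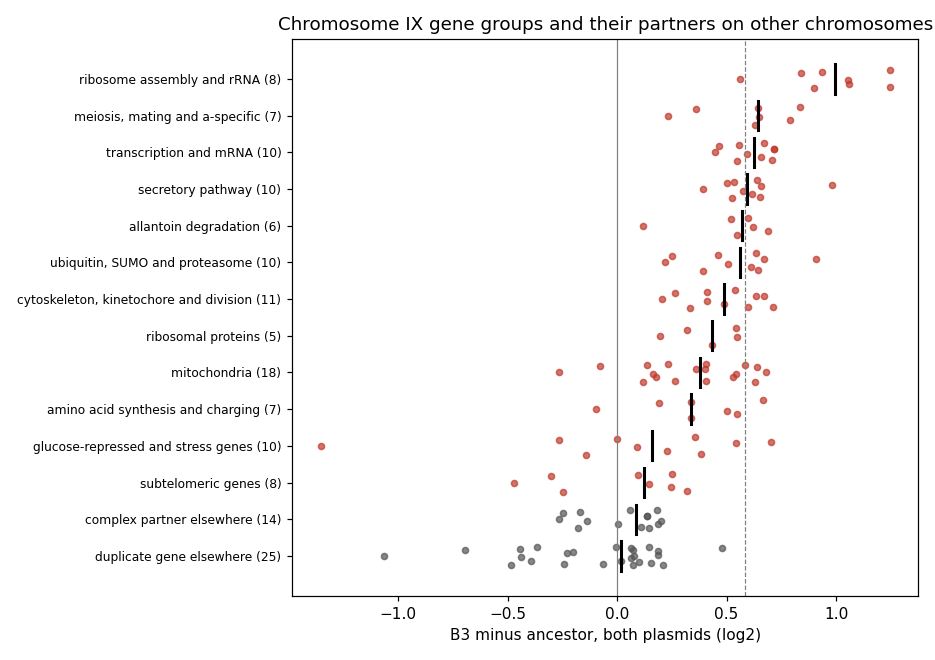
Difference of B3 from the ancestor over both plasmids (log2) for the tested genes of each group, with the number of genes in brackets. Red points are chromosome IX genes, grey points are their partners on other chromosomes, bars are medians and the dashed line marks a 3:2 ratio. Medians run from 1.00 for ribosome assembly genes to 0.12 for the subtelomeric list, with 0.09 and 0.02 for the partner lists.

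Ribosome assembly genes had the highest median of the lists, 1.00 over both plasmids. It was 0.57 with the tRNA, under the 3:2 value, and 1.45 with the empty vector. The study reports ribosome biogenesis and rRNA processing genes as up-regulated in the matched line, from segments without copy number changes. Such genes on other chromosomes were not set beside these 8. All 8 were above 0 and 7 rose, and for 4 the interval lay above log2 of 1.5 while for 4 it held that value. FAF1, needed to process the RNA of the small ribosomal subunit, was at 1.59, 1.66 and 1.10 in B3 with the tRNA, against 1.09, 0.35 and 0.97 in the ancestor with the tRNA. Under the empty vector its levels were 1.44 and 1.32 in B3, against -0.55 and -0.38 in the ancestor. B3 had about the same level with either plasmid, and the ancestor did not. The difference was 1.25 ± 0.29 (adjusted p = 0.00835).

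UTP25, a protein of the small-subunit processome, was at 2.24, 2.11 and 1.80 in B3 with the tRNA, against 1.74, 1.11 and 1.80 in the ancestor with the tRNA. Its empty-vector levels were 2.23 and 2.12 in B3, against 0.67 and 0.45 in the ancestor. RRT14 (1.25 ± 0.22) and SHQ1, an assembly chaperone of H/ACA particles (0.94 ± 0.15), had intervals above log2 of 1.5 as well. BMT5, which methylates the RNA of the large subunit, AIR1, a subunit of the TRAMP complex, and SQT1, a chaperone of a ribosomal protein, were at 1.06 ± 0.33, 0.90 ± 0.17 and 0.84 ± 0.17. RPR2, a subunit of ribonuclease P, was at 0.56 ± 0.20 and not called (adjusted p = 0.0801). The remaining genes with intervals above log2 of 1.5 were EFM4, which methylates an elongation factor (0.93 ± 0.16), URM1, and PRM5, a pheromone-regulated membrane protein (0.79 ± 0.08). YVH1, a phosphatase that takes part in maturing the large subunit, was 0.95 ± 0.21 higher (adjusted p = 0.00613).

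In the ancestor FAF1 was 1.27 higher and UTP25 0.99 higher with the tRNA than with the empty vector (adjusted p = 0.0383 and 0.0294), and in B3 the same differences were 0.07 and -0.12 (adjusted p = 1). The difference between these responses did not pass the test for either gene (adjusted p = 0.318 and 0.210).

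In mitochondrial genes and genes of glucose repression and stress the median was higher with the tRNA than with the empty vector, a difference that was not tested for the groups. The 18 mitochondrial genes had a median of 0.38 over both plasmids, 0.55 with the tRNA and 0.16 with the empty vector, and 8 rose. The 10 tested genes of glucose repression and stress had a median of 0.16, at 0.45 with the tRNA and -0.20 with the empty vector, with 3 higher and 1 lower. SUC2, the invertase, was at 1.51, 1.53 and 1.49 in B3 with the tRNA, against 0.80, 1.06 and 0.92 in the ancestor with the tRNA, and at 1.69 and 1.59 in B3, against 0.81 and 0.82 in the ancestor, with the empty vector. Its difference was 0.70 ± 0.08 (adjusted p = 2.3e-05). POR2, a minor porin of the outer membrane, and TIM44, of the protein import motor, were 0.68 ± 0.10 and 0.40 ± 0.07 higher (adjusted p = 0.000309 and 0.00143).

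KGD1, of the α-ketoglutarate dehydrogenase complex, was at 0.92, 0.85 and 1.11 in B3 with the tRNA, against 0.39, 0.65 and 0.41 in the ancestor with the tRNA. Under the empty vector its levels were 0.92 and 0.93 in B3, against 1.11 and 1.04 in the ancestor. B3 was above with the tRNA and below with the empty vector, with no overlap in either. The differences were 0.48 ± 0.12 (adjusted p = 0.0356) and -0.15 ± 0.15 (adjusted p = 0.572). MAM33, an acidic protein of the mitochondrial matrix, was at 1.00, 0.97 and 1.07 in B3 with the tRNA, against 0.44, 0.56 and 0.40 in the ancestor with the tRNA, and at 1.08 and 1.03 in B3, against 1.38 and 1.29 in the ancestor, with the empty vector. The differences were 0.55 ± 0.13 (adjusted p = 0.0245) and -0.28 ± 0.17 (adjusted p = 0.275). GTT1, a glutathione transferase, was at 0.49 ± 0.14 with the tRNA and -0.30 ± 0.18 with the empty vector, neither called (adjusted p = 0.0721 and 0.270). The difference between the responses to the tRNA in B3 and in the ancestor did not pass the test for KGD1, MAM33 or GTT1 (adjusted p = 0.138, 0.0711 and 0.106).

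Of the 25 genes whose interval over both plasmids held 0 and lay below log2 of 1.5, 15 were above 0 with the tRNA and below 0 with the empty vector, as were 22 of all 204 genes. An average over both plasmids favours such genes in this class, so nothing is read from the 15. Besides KGD1, MAM33 and GTT1 they include BCY1, the regulatory subunit of protein kinase A (0.59 and -0.31), COX5B, an isoform of a cytochrome c oxidase subunit (0.62 and -0.26), AYR1, of lipid synthesis (0.68 and -0.21), and VID28, of the GID ubiquitin ligase (0.68 and -0.25), the first value of each pair being with the tRNA. Others of the 25 with narrow intervals were PAN1 and INP51, of endocytosis (0.21 ± 0.13 and 0.25 ± 0.13 over both plasmids), SOA1, a transporter of sulfur compounds (0.23 ± 0.15), RCI37 (0.06 ± 0.15) and NIT1, a nitrilase (0.23 ± 0.11). The stress regulators RPI1 and SDP1 were among the 10 lowest genes, at -0.09 ± 0.18 and -0.08 ± 0.28. In the ancestor MAM33 was -0.87 ± 0.15 with the tRNA relative to the empty vector (adjusted p = 0.000922; 12.5% of all genes were called lower). In B3 the same response of MAM33 was -0.04 ± 0.15. Against D11 and H9, a comparison that uses the same B3 arrays, 7 of the 25 were higher in B3 at an adjusted p under 0.05 (against 73% of the 204 and 12.7% of all genes), among them MAM33 (0.32 ± 0.09) and AYR1 (0.48 ± 0.12), and 1, SGA1, was lower.

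A smaller set had intervals below the 3:2 value with each plasmid. The 10 genes whose interval was under log2 of 1.5 and not above 0 with each plasmid alone were CSS1, XBP1, YIR042C, MET28, YIL177C, QDR2, IMA3, ATG32, SGA1 and VTH1. Of the 10, 5 lie in the subtelomeric list: CSS1, YIR042C, YIL177C, IMA3 and VTH1. YIL177C, encoded in a repeated Y′ element, IMA3, an isomaltase, and VTH1 have close copies elsewhere that their probes may read, so their small differences (-0.25 ± 0.11, 0.10 ± 0.09 and 0.25 ± 0.09) are uncertain as values for chromosome IX. VTH1 was nonetheless above the ancestor on every B3 array with the same plasmid, its interval over both plasmids lay above 0 (0.05 to 0.44), and it was 0.47 ± 0.08 higher in B3 than in D11 and H9 (adjusted p = 0.000188).

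QDR2, a multidrug transporter of the plasma membrane, was at 1.84, 1.88 and 1.94 in B3 with the tRNA, against 1.99, 2.07 and 1.89 in the ancestor with the tRNA. Its empty-vector levels were 1.53 and 1.57 in B3, against 1.83 and 1.82 in the ancestor. The levels overlapped with the tRNA and B3 was lower with the empty vector. The difference over both plasmids was -0.18 ± 0.08 (95% interval -0.35 to -0.02, adjusted p = 0.131). D11 and H9 differed from the ancestor by -0.47 ± 0.07 and -0.38 ± 0.07 (adjusted p = 0.000235 and 0.00203), and B3 was 0.24 ± 0.06 above D11 and H9 (adjusted p = 0.0110).

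MET28, an activator of sulfur amino acid genes, was at 0.48, 0.53 and 0.27 in B3 with the tRNA, against 0.67, 0.73 and 0.63 in the ancestor with the tRNA. Under the empty vector its levels were -0.37 and -0.28 in B3, against -0.34 and -0.42 in the ancestor. It was thus below the ancestor with the tRNA and overlapped it with the empty vector, and the difference was -0.10 ± 0.12 (adjusted p = 0.680). Against D11 and H9 it was 0.42 ± 0.10 higher in B3 (adjusted p = 0.00414). It is 1 of 3 chromosome IX genes that responded to the tRNA within B3. ATG32, the mitophagy receptor, was at -1.28, -1.32 and -1.25 in B3 with the tRNA, against -1.55, -1.41 and -1.15 in the ancestor with the tRNA, and at -1.38 and -1.35 in B3, against -1.57 and -1.45 in the ancestor, with the empty vector. Its difference was 0.12 ± 0.12, with a 95% interval of -0.13 to 0.36 that lies below the 3:2 value.

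CSS1 (YIL169C), which encodes a protein resembling cell wall glycoproteins and is on the study's list of mutated genes, was at 0.91, 0.96 and 0.93 in B3 with the tRNA, against 1.00, 1.79 and 1.18 in the ancestor with the tRNA. Its empty-vector levels were 0.41 and 0.56 in B3, against 1.09 and 0.99 in the ancestor. All B3 arrays were below the ancestor arrays with the same plasmid, by -0.47 ± 0.12 (adjusted p = 0.0176). The call was lost without B3 array 1 (adjusted p = 0.0837) or ancestor array 1 (adjusted p = 0.0756) with the empty vector. In D11 it was at 2.48, 2.39 and 2.26 with the tRNA and 2.06, 2.14 and 1.84 with the empty vector, and in H9 at 2.18, 2.31 and 2.17 with the tRNA and 2.49, 2.88 and 2.57 with the empty vector. Both lines were above all ancestor arrays, by 1.02 ± 0.12 in D11 and 1.25 ± 0.12 in H9 (adjusted p = 1.36e-05 and 1.63e-06). CSS1 belongs to a family with similar sequences elsewhere.

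XBP1, a repressor of transcription induced by stress, was at -2.07, -2.51 and -2.48 in B3 with the tRNA, against -2.44, -1.19 and -2.64 in the ancestor with the tRNA. Under the empty vector its levels were -3.92 and -3.89 in B3, against -1.54 and -1.38 in the ancestor. The groups overlapped with the tRNA, and with the empty vector B3 was the lowest of all groups. H9 was 0.87 ± 0.23 higher than the ancestor (adjusted p = 0.0208). The differences were -0.27 ± 0.31 (adjusted p = 0.971) and -2.44 ± 0.38 (adjusted p = 0.00102), and over both plasmids -1.35 ± 0.25 (adjusted p = 0.00151). With the tRNA B3 was 1.55 ± 0.35 higher than with the empty vector (adjusted p = 0.0381), while the ancestor's response was -0.63 ± 0.35 (adjusted p = 0.214). XBP1 was the only chromosome IX gene whose response to the tRNA differed between B3 and the ancestor at an adjusted p under 0.05 (0.49% of the 204 genes, against 0.863% of all genes tested). That call was made in 11 of 31 other settings.

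**Figure D5:**
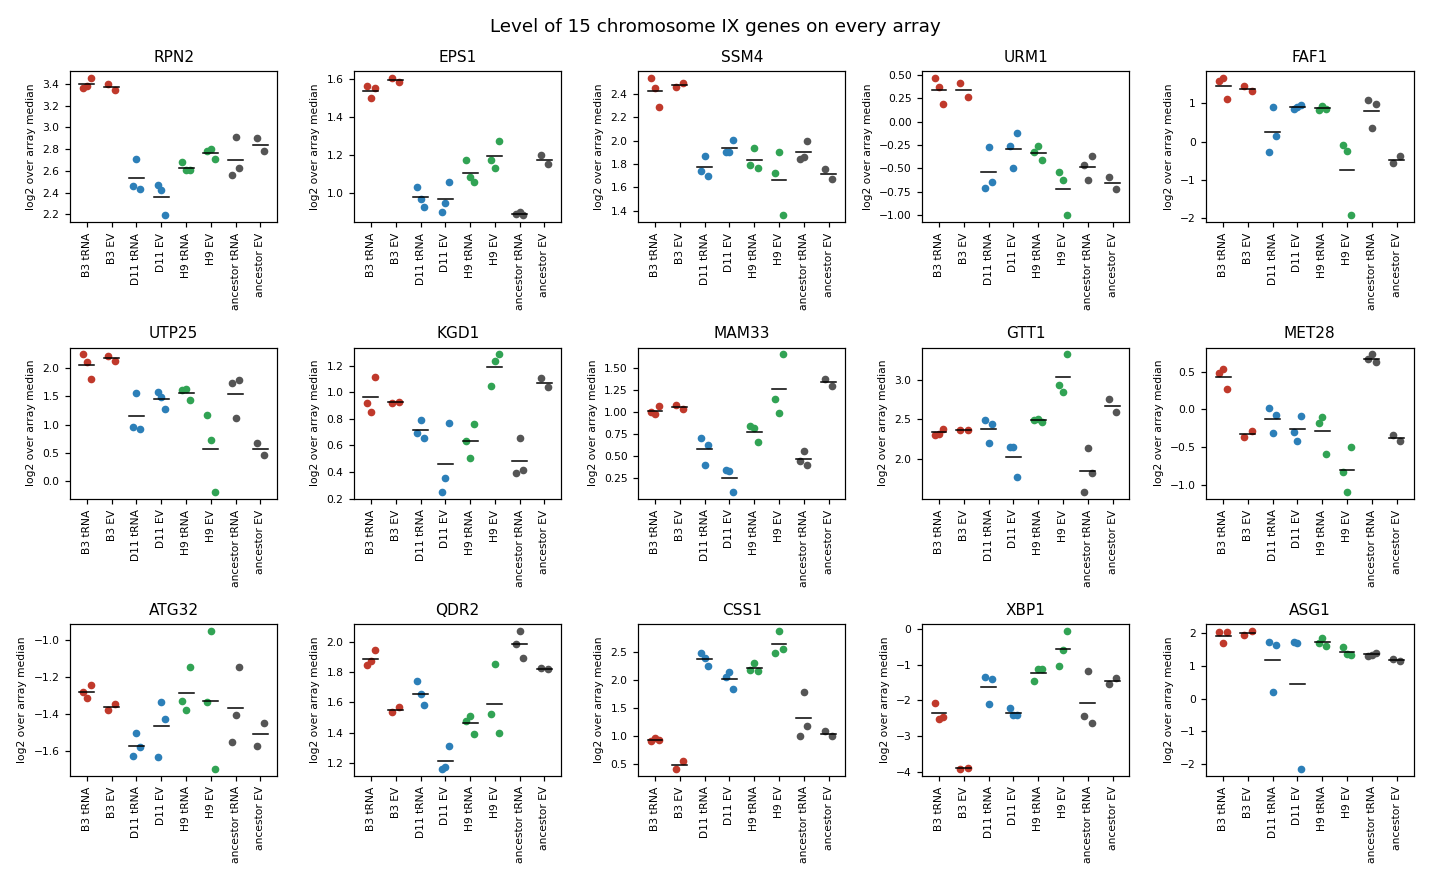
Level of 15 chromosome IX genes on every array (log2 relative to the array median), by group. Points are arrays and bars are group means. RPN2, EPS1, SSM4 and URM1 are higher on every B3 array than on all other arrays, the group means of KGD1, MAM33 and GTT1 in B3 lie between the ancestor's levels with the tRNA and with the empty vector, and XBP1 is near -3.9 in B3 with the empty vector.

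Other genes were near the ancestor with the tRNA alone. Amino acid genes had a median of 0.31 with the tRNA and 0.53 with the empty vector, and 4 of 7 rose over both plasmids. LYS1, saccharopine dehydrogenase of lysine synthesis, was at 2.65, 2.69 and 2.53 in B3 with the tRNA, against 2.46, 2.61 and 2.60 in the ancestor with the tRNA, and at 2.18 and 2.16 in B3, against 1.57 and 1.56 in the ancestor, with the empty vector. The groups overlapped with the tRNA (0.07 ± 0.14) and not with the empty vector (0.61 ± 0.17, adjusted p = 0.0252). RNR3, a DNA-damage-inducible subunit of ribonucleotide reductase, was at 0.12 ± 0.09 and 0.59 ± 0.11, and VHR1, a regulator of biotin genes, at -0.06 ± 0.16 and 0.69 ± 0.19. In the ancestor LYS1, RNR3 and VHR1 were 0.99, 0.74 and 1.00 higher with the tRNA than with the empty vector (adjusted p = 0.000405, 0.000126 and 0.000942). These values use the same ancestor arrays as the differences of B3. The difference between the tRNA responses of B3 and of the ancestor did not pass the test for LYS1, RNR3 or VHR1.

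Of the 7 genes of meiosis and mating 5 rose (median 0.64). BAR1 was 0.84 ± 0.16 higher (adjusted p = 0.00203). PRM2, a pheromone-regulated membrane protein needed for nuclear fusion, was at 0.99 ± 0.21 with the tRNA (adjusted p = 0.00986) and -0.27 ± 0.26 with the empty vector. D11 and H9 differed from the ancestor by -0.99 ± 0.16 and -1.65 ± 0.16, and B3 was 1.68 ± 0.14 higher than D11 and H9. SPO22, which acts in meiotic crossing over, was 0.63 ± 0.15 higher in B3, and also 0.54 ± 0.14 higher in D11 and 0.62 ± 0.14 higher in H9 (adjusted p = 0.00790, 0.00943 and 0.00586), so its rise was not seen in B3 alone.

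Genes on other chromosomes that are duplicates of, or partners in a complex with, chromosome IX genes did not move as a group. Of 25 duplicates the median was 0.02, with 1 higher and 3 lower (7.7% and 6.88% of all genes). GPP1, a glycerol-phosphatase, was 0.70 ± 0.09 higher (adjusted p = 0.000114) in B3 and 0.59 ± 0.09 higher in D11 (adjusted p = 0.000149). In B3 its duplicate GPP2, on chromosome V, was at -1.06 over both plasmids (adjusted p = 5.19e-06). It was at -1.77 with the empty vector (adjusted p = 5.58e-06) and -0.36 with the tRNA (adjusted p = 0.149). With the empty vector the level of GPP2 was -0.14 in B3, -0.07 in D11, 1.65 in H9 and 1.63 in the ancestor. The study lists a loss of a small part of chromosome V in the line matched to B3 and describes that part as carrying UBP3. GPP2 is not among the genes that its text names there, and the cause of the GPP2 difference was not tested. POR2 and COX5B, at 0.68 and 0.18, had duplicates POR1 and COX5A at -0.39 and -0.69 (adjusted p = 0.0194 and 0.000852), and SUN4, the duplicate of SIM1, was at 0.48 (adjusted p = 0.0340). With the empty vector POR1 and COX5A were at -0.60 and -1.10 (adjusted p = 0.0224 and 0.00151). With the tRNA they were at -0.19 and -0.29 and not called (adjusted p = 0.768 and 0.480). SUN4 was called with neither plasmid alone (adjusted p = 0.197 with the empty vector and 0.152 with the tRNA). CCT2, a subunit of the cytosolic chaperonin, was 0.74 ± 0.21 higher (adjusted p = 0.0236), whereas the 7 other subunits lay between 0.00 and 0.20 (adjusted p from 0.196 to 0.998). Over the 14 complex partners the median was 0.09.

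In D11 and H9 the share of chromosome IX genes called lay near that of all genes. Over both plasmids 37 genes (18.1%) were called in either direction in D11, against 23.3% of all genes tested, and 23 (11.3%) in H9, against 12.3%. The medians were 0.01 in D11 and 0.00 in H9. SGA1, a sporulation-specific glucoamylase, stood out among them. It was 1.31 ± 0.15 higher in D11 and 0.61 ± 0.15 higher in H9 (adjusted p = 1.66e-05 and 0.0139), and in B3 it was at -0.14 ± 0.16. It is 1 of the 4 genes that were lower in B3 than in D11 and H9, with CSS1, XBP1 and TIR3, a cell wall mannoprotein (-0.26 ± 0.08).

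The response to the tRNA itself was small on chromosome IX in B3. There 3 genes (1.47%) were called, against 1.07% of all genes, and in the ancestor 48 (23.5%), against 21.5% of all genes, of which 16 were higher and 32 lower with the tRNA. Each share lies near its background. The 3 genes in B3 were XBP1, MET28 (0.75 ± 0.17, adjusted p = 0.0381) and SPO22, a meiosis gene (-1.01 ± 0.21, adjusted p = 0.0217). In the ancestor MET28 and SPO22 responded with 1.06 ± 0.17 and -1.14 ± 0.21.

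Genes that were dim give little information. The 7 chromosome IX genes that were not tested, because they were not well above background on all arrays of any group, were YIL102C, YIL060W, RGI2, YIL032C, YIL025C, YIR020W-A and YIR040C. Another 8 passed through some groups only, among them GAT4, of the GATA family, which was well above background in 1 group. By array, GAT4 was well above background on 3 B3 arrays and on 0 ancestor arrays. GAT4 was among the 10 genes with the highest difference (1.16 ± 0.52, adjusted p = 0.151), and its levels near the floor, between -6.41 and -5.46 in B3 and between -7.42 and -6.75 in the ancestor, leave the size of that difference uncertain.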

How the data were processed

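RNA of 22 cultures was labelled with Cy3 and hybridised to 1-colour Agilent yeast arrays (array design built on sacCer2:SGD:Jun2008). The deposited intensity values were made by the authors with Agilent Feature Extraction 10.7.3.1, which subtracts background from each spot. The authors also deposited log2 values, median centred in BRB-Array tools, which were used only as an alternative. Here log2 of the processed intensity was centred on each array's median, with control and outlier spots left out, and spots and probes were averaged per gene. A gene was tested if 1 group or more had a spot of it well above background on all its arrays.

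Differences were fitted in limma 3.58.1 (R 4.3.3) with 8 group means (14 residual degrees of freedom) and Benjamini-Hochberg adjustment over 5912 genes, a call being an adjusted p under 0.05 with no fold threshold. The methods name Student's t test at p under 0.01, run as an alternative ("the methods' t-test"). Normexp (offset 50) used the median signals and background medians, as mean signals are not among the columns used. The other alternatives were 75th percentile scaling, quantile normalization and centring on chromosomes without listed changes. Filters, the groups fitted, a replicate block and leaving out each array were also varied. Code was tested on simulated data. Figures used matplotlib 3.10.9 (Python 3.11.15). Gene names came from the arrays and a RefSeq gene table.

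The members, gene lists and tests were chosen with earlier results of these data known. Genes named are the 10 highest and 10 lowest, those called lower, up to 12 with narrow intervals that hold 0, those the study names, those whose tRNA response differed, and list members the results turn on. Precision is limited by the few arrays per group, and p-values measure the spread between the cultures of 1 clone per line.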

Additional observations from a re-analysis of the deposited data

Results flagged for a closer look

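XBP1 is the 1 chromosome IX result whose response to the tRNA differed between B3 and the ancestor in a test of that difference. With the tRNA XBP1 was 1.55 higher than with the empty vector in B3, whereas in the ancestor the same response was -0.63, and the difference between the responses was 2.18 on the log2 scale (limma interaction, adjusted p = 0.0486). Both B3 arrays with the empty vector lay below all other arrays, and the ancestor arrays with the tRNA spanned -2.64 to -1.19. Over 31 other settings the difference was 1.55 to 2.63 with an adjusted p of 0.00256 to 0.206, and it was called in 11. What brings it about was not tested.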

How the results depend on the processing

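The chromosome IX shift of B3 with the tRNA kept its size under every scaling and filter run, and with the empty vector it was 0.502 when arrays were centred on chromosomes without listed changes. The small D11 shift with the empty vector was -0.113 with 75th percentile scaling, 0.0125 with that centring, 0.0236 with normexp and -0.228 in the authors' series values, which gave -0.0466 with the tRNA. The ancestor's shift with the tRNA against the empty vector was -0.0158 with that centring.

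Counts of calls moved more. The number of genes higher in B3 over both plasmids was 97 to 138 when 1 array was left out and 113 to 132 under the other scalings and background settings. Leaving out 1 array gave 24 to 94 genes higher with the empty vector (the lowest without B3 array 1, the highest without D11 array 3), 54 to 111 with the tRNA, 1 to 3 lower over both plasmids, 0 to 11 whose tRNA response differed between B3 and the ancestor, 19 to 46 called in D11, 14 to 33 in H9, 17 to 65 for the tRNA in the ancestor and 0 to 6 for the tRNA in B3. CSS1 was not called lower in 2 of 31 settings, without B3 array 1 (adjusted p = 0.0837) and without ancestor array 1 (adjusted p = 0.0756), both with the empty vector.

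With only the groups compared in the fit, 147 genes were higher with the empty vector, 4 were lower over both plasmids, 29 had a different tRNA response, 24 were called in D11 and 5 for the tRNA in B3. The different tRNA response was called for 0 genes with centring on chromosomes without listed changes, 2 with quantile normalization, 0 with normexp, 4 in the series values and 0 with no filter on dim probes. In the setting reported, limma gave 26 higher and 10 lower at an unadjusted p under 0.05. The tRNA response within B3 was called for 5 genes with 75th percentile scaling, 0 with normexp and 5 in the series values. The methods' t-test gave 67 genes higher with the empty vector at its threshold (32.8%, against 10.4% of all genes) and 87 after Benjamini-Hochberg adjustment (42.6%, against 12.5%). The cause was not tested in any of these cases.

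Whether the replicate numbers, which are also the slides, pair the samples was not settled. Deviations from the group mean correlated at a median of 0.06 (-0.556 to 0.602) for same-numbered arrays. For other numbers the median was 0.02 (-0.609 to 0.638). Such deviations sum to 0 within each small group, so medians near 0 cannot exclude a shared effect of the slide. With the replicate number as a block, 124 genes were higher over both plasmids (121 of the 122 among them), 0 differed in tRNA response and 1 responded to the tRNA in B3. Over 122 named genes and all alternatives, 3565 of 3779 values kept their direction and side of the threshold, 126 fell short of it, 72 passed it, 4 uncalled values (GAT4 under 2 settings, DAL1 and YIR042C) moved further than their spread and 12 values of 4 uncalled genes near 0 changed sign. Of these, POT1 was at 0.0517 with centring on chromosomes without listed changes, 0.0344 with normexp, 0.00796 in the series values and -0.170 to 0.170 without 1 array. With 1 array left out SDP1 was at -0.164 to 0.00840, RCI37 at -0.00598 to 0.124 and GUT2 at -0.208 to 0.0309. Dim genes are the limit: the 68 dimmest had a median standard error of 0.15.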
